A study of Mus musculus with 18 samples.

Results

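The genes described here are those of the platelet-derived growth factor (PDGF) family: 4 ligand genes, *Pdgfa*, *Pdgfb*, *Pdgfc* and *Pdgfd*, and 2 receptor genes, *Pdgfra* and *Pdgfrb*. They were picked by gene symbol, as 6 of the 22909 symbols in the table. A transcript cluster is the set of array probes summarised as 1 gene, and each member was read from the cluster with the highest mean signal over all arrays. Only *Pdgfa* had another cluster. The study sorted mesangial cells, podocytes and endothelial cells by FACS from isolated glomeruli of mice 5 weeks of age. The mice were either CD2AP-/-, homozygous for a germline mutation of *Cd2ap*, or wild type, and each group of cell type and genotype gave 3 arrays, 18 in all. *Cd2ap* encodes an adapter protein of the podocyte slit diaphragm, and mice without it develop nephrotic syndrome with glomerulosclerosis. GFP marked the cells to be sorted, and mice of both genotypes carried a transgene that differed between the cell types, such as *Meis1-GFP* for mesangial cells and *Tie2-GFP* for endothelial cells. Reporter line and cell type therefore cannot be told apart. The columns of the mesangial controls are marked +:-, where those of the other controls are marked with a pair of plus signs. The genotype field of their records reads wildtype and their titles read control, and they are called wild type here. Whether these mice were heterozygous for *Cd2ap* is not settled by the sources, and every mesangial genotype difference and wild type mesangial level below rests on them.

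PDGF ligands are secreted dimers that bind receptor tyrosine kinases on the cell surface. PDGF-A and PDGF-C act mainly through the alpha receptor, encoded by *Pdgfra*. PDGF-B binds both receptors, and PDGF-D acts mainly through the beta receptor, encoded by *Pdgfrb*. PDGF-C and PDGF-D are secreted in a latent form, from which a protease must remove the CUB domain. In the developing glomerulus, endothelial cells make PDGF-B and the mesangial progenitors carry the beta receptor. Without either of them the capillary tuft forms with no mesangial cells.

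Labels were checked against 8 marker genes for each cell type. The summed signal of the mesangial markers was 6834 to 10944 in mesangial arrays and at most 4625 elsewhere. Podocyte markers summed to 11697 to 13460 in podocyte arrays and to at most 3696 elsewhere, and endothelial markers to 15836 to 18089 in endothelial arrays and to at most 8228 elsewhere. One array stood apart. Wild type mesangial array C had a podocyte marker sum of 3696, where arrays A and B had 946 and 1106, and an endothelial marker sum of 8228, where they had 2966 and 3358. Its erythroid marker sum was 7227, where they had 559 and 271, and its tubule marker sum of 906 was also the highest of the 3. The main mesangial values are therefore also given without it. *Cd2ap* itself was not shown to fall in arrays labelled mutant, with log2 differences of -0.31 in mesangial, -0.23 in podocyte and 0.18 in endothelial arrays (adjusted p = 0.151, 0.504 and 0.336 by limma), so every direction below rests on the labels. Each array is 1 sorted sample, how many mice each sort used is not given in the sources used here, and p-values measure the spread between these arrays.

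The plot of signals by array shows all values of the 6 members. Signals are linear RMA intensities, and 100 is the minimum that the study set. A level is compared only between groups for the same gene, never between genes.

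**Figure D1:**
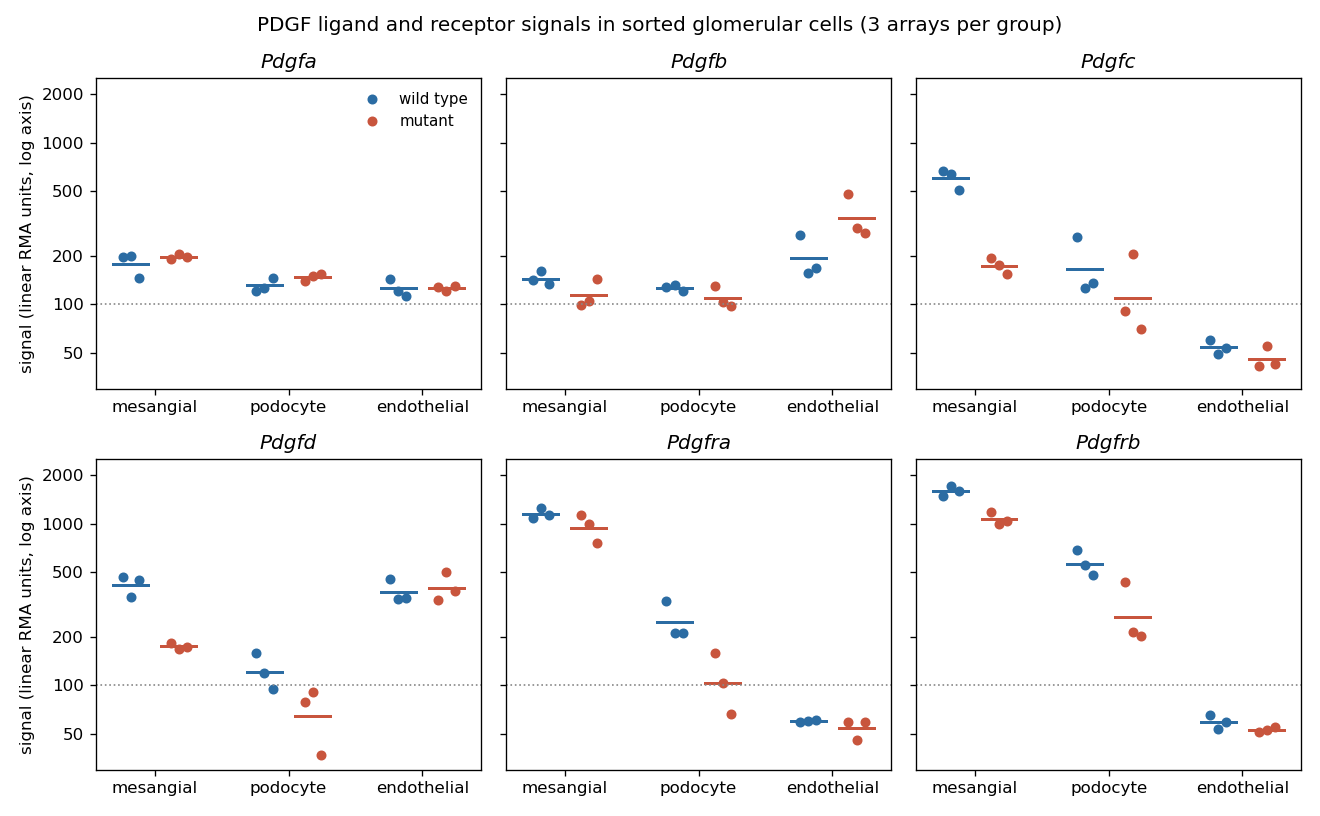
Signal of each PDGF ligand and receptor gene (linear RMA units on a log axis) in mesangial, podocyte and endothelial arrays, wild type in blue and mutant in red. Points are the 3 arrays of a group, bars are geometric means and the dotted line is the signal minimum of 100. *Pdgfc*, *Pdgfd* and *Pdgfrb* in mesangial arrays, and both receptors and *Pdgfd* in podocyte arrays, lie lower in every mutant array than in every wild type array.

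Among wild type arrays, both receptor transcripts were highest in mesangial cells, intermediate in podocyte arrays and at background in endothelial cells. *Pdgfrb* (transcript cluster 10456046), the beta receptor, had signals of 1480.8, 1705.7 and 1599.2 in wild type mesangial arrays A, B and C. In wild type podocyte arrays it had 682.1, 551.0 and 481.6, and in wild type endothelial arrays 65.0, 53.2 and 58.7. None of these groups overlapped. The mesangial level was 2.82-fold that of podocytes (log2 difference 1.49, SE 0.14, adjusted p = 0.000523) and 27.1-fold that of endothelial cells (4.76, SE 0.11, adjusted p = 8.74e-07). *Pdgfra* (10522503), the alpha receptor, had 1080.9, 1247.9 and 1138.5 in wild type mesangial arrays. It had 334.2, 211.1 and 209.4 in wild type podocyte arrays and 58.9, 59.9 and 60.4 in wild type endothelial arrays. Its order was the same, with a mesangial level 4.70-fold that of podocytes (2.23, SE 0.19, adjusted p = 0.00038) and 19.3-fold that of endothelial cells (4.27, SE 0.09, adjusted p = 8.16e-07). Since the endothelial values of both receptors were below 100, the transcripts entered that comparison only through the mesangial side, and folds against a background signal understate a difference.

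The podocyte arrays also carried signal of mesangial markers. Their summed signal was 3679 to 4625 in wild type podocyte arrays, against 9980 to 10944 in wild type mesangial arrays and 696 to 775 in wild type endothelial arrays, where 6 of the 8 markers were below 100 on all 3 arrays. In a bulk sample, fewer cells of a type and less RNA per cell cannot be told apart. How much of the receptor signal in podocyte arrays came from mesangial cells was not tested.

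The ligands did not share a pattern. *Pdgfc* (10492689), a latent ligand of the alpha receptor, followed the order of the receptors, with 670.2, 635.6 and 512.5 in wild type mesangial arrays. It had 260.5, 125.7 and 135.4 in wild type podocyte arrays and 59.9, 49.1 and 53.4 in wild type endothelial arrays. The mesangial level was 3.66-fold that of podocytes (1.87, SE 0.28, adjusted p = 0.00305) and 11.2-fold that of endothelial cells (3.48, SE 0.13, adjusted p = 4.73e-06), the latter with background on the endothelial side. In mutant instead of wild type arrays the mesangial and podocyte difference was 0.67 (adjusted p = 0.216 by limma) and was not called. *Pdgfd* (10583021), a latent ligand of the beta receptor, had 465.9, 350.0 and 450.9 in wild type mesangial arrays and 451.4, 343.3 and 346.3 in wild type endothelial arrays. These groups overlapped, with a log2 difference of 0.15 whose 95% interval ran from -0.22 to 0.52 (adjusted p = 0.499). Wild type podocyte arrays had 158.3, 118.7 and 95.2, below both, by 3.45-fold against mesangial cells (adjusted p = 0.000983) and 3.11-fold against endothelial cells (adjusted p = 0.000258).

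*Pdgfb* (10430660), the ligand that endothelial cells supply to mesangial cells in development, had its highest wild type signals in endothelial arrays, at 269.3, 156.4 and 168.5. Wild type mesangial arrays had 140.1, 159.4 and 132.5 and overlapped with them (log2 difference -0.42, mesangial minus endothelial, 95% interval -0.91 to 0.07, adjusted p = 0.169). Wild type podocyte arrays had 126.9, 131.7 and 119.8, which was 1.52-fold lower than endothelial cells (adjusted p = 0.0354). That call stood just past the fold threshold of 1.5 and was lost without wild type endothelial array A (log2 difference -0.36) or without any one of the 3 podocyte arrays (adjusted p = 0.064 to 0.105), with array weights (-0.50) and with no signal minimum. *Pdgfa* (10535043), a ligand of the alpha receptor, varied little. It had 196.5, 197.7 and 146.0 in wild type mesangial, 120.9, 126.4 and 145.8 in wild type podocyte and 143.3, 119.9 and 113.0 in wild type endothelial arrays. Its mesangial level was 1.43-fold the endothelial one (adjusted p = 0.0412), under the fold threshold, and 1.37-fold the podocyte one (adjusted p = 0.0598). Its other cluster (10526880), which the table shares with *6330403L08Rik*, gave 89.6 to 128.4 over all 18 arrays and had the opposite sign in both comparisons (-0.13 and -0.19, adjusted p = 0.343 and 0.171).

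With an adjusted p under 0.05 and a fold over 1.5, 4 of the 6 members were higher in wild type mesangial cells than in podocytes, where 15.4% of all transcript clusters tested differed in either direction. Against endothelial cells 3 members were called higher in mesangial cells, where 17.9% of all clusters tested differed, and 5 differed between podocytes and endothelial cells, 3 higher and 2 lower in podocytes, where 22.5% did. The 3 higher members in each of these were *Pdgfc*, *Pdgfra* and *Pdgfrb*, which passed the signal minimum only through the side where they were high, so these counts are a description and nothing is read from them. Without wild type mesangial array C, *Pdgfa* was called as well, at 0.59 against podocytes (adjusted p = 0.0106) and 0.66 against endothelial cells (adjusted p = 0.00862), and the other calls against mesangial cells stood.

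In mutant mesangial cells the largest changes of the family were in the latent ligands. *Pdgfc* had signals of 193.6, 174.5 and 154.2 in mutant arrays A, B and C, against 670.2, 635.6 and 512.5 in wild type arrays. Every mutant array was far below every wild type array, and the mean fell from 606 ± 82.9 to 174 ± 19.7 (SD, n = 3 arrays each). By limma this was 3.47-fold lower (log2 difference -1.80, SE 0.14, 95% interval -2.12 to -1.47, adjusted p = 0.00349), at rank 14 by p among 11457 transcript clusters. *Pdgfd* had 183.1, 166.9 and 171.9 in mutant arrays against 465.9, 350.0 and 450.9 in wild type arrays. Again the groups did not overlap, and the mean fell from 422 ± 63.0 to 174 ± 8.28, or 2.41-fold (log2 difference -1.27, SE 0.13, adjusted p = 0.00843). Without wild type array C the differences were -1.91 for *Pdgfc* (adjusted p = 0.00332) and -1.22 for *Pdgfd* (adjusted p = 0.0141). Over all single arrays left out, the adjusted p stayed between 0.00332 and 0.0276 for *Pdgfc* and between 0.0141 and 0.0486 for *Pdgfd*.

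The start regions of these 2 genes are shown because the ligands moved together in mesangial cells. RefSeq promoter windows of 300 bases, from 250 before to 50 after the start site, matched 4 of the 6 members by symbol: *Pdgfa*, *Pdgfc*, *Pdgfd* and *Pdgfra*. The windows are from build GRCm38.p6, read 5′ to 3′ on the gene's strand. That of *Pdgfc* lies at chr3:81036166-81036465 on the plus strand and that of *Pdgfd* at chr9:6168236-6168535 on the plus strand. Capitals mark matches to any of 4 motifs searched on both strands, the CArG box by name, the TATA box as TATAAA, the CCAAT box and the GC box as GGGCGG.
Pdgfc: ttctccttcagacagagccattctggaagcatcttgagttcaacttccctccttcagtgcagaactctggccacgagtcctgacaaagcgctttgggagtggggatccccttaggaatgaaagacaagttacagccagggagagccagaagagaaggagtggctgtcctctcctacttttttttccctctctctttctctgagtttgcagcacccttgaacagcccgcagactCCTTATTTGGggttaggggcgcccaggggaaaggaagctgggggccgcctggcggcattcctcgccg
Pdgfd: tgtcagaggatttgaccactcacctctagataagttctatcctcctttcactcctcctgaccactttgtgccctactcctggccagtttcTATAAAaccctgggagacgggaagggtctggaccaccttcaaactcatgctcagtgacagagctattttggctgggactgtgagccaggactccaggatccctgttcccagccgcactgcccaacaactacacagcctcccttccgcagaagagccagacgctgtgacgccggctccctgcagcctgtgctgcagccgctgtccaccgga

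The *Pdgfc* window held 1 match, a CArG box at position -17 from the start site, the element that serum response factor binds. That of *Pdgfd* held 1 match, TATAAA at position -160. A CArG box is found in 1.63% and TATAAA in 13.6% of the 32851 RefSeq mouse promoter windows of this length, the CCAAT box in 37.4% and the GC box in 35.7%. The *Pdgfra* window held none of the 4 motifs, and the 2 windows listed for *Pdgfa* held the GC box only. The 2 ligand windows thus shared none of these letters. A match is a stretch of letters and not a measured binding site.

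*Pdgfrb* in mutant mesangial arrays had 1188.1, 988.1 and 1037.6, all below the lowest wild type array at 1480.8. Its log2 difference of -0.58 (SE 0.10, adjusted p = 0.042 by limma) is 1.49-fold, just short of the fold threshold of 1.5. It passed that threshold without mutant array A (-0.65) or wild type array A (-0.63), and with array medians subtracted (-0.59), quantile normalization repeated (-0.61) or array weights (-0.60). The adjusted p was 0.0679 to 0.146 when any single array was left out and 0.158 in 1 fit of all 18 arrays, so the adjusted call was lost in each of these, as it was with no signal minimum. It was 0.00929 with an intensity trend and robust estimation. *Pdgfra* had 1131.6, 988.0 and 756.1 in mutant arrays, which overlapped the wild type range of 1080.9 to 1247.9 (log2 difference -0.29, SE 0.16, 95% interval -0.66 to 0.08, adjusted p = 0.341). For *Pdgfb*, mutant mesangial arrays had 99.4, 105.1 and 143.2, overlapping with wild type (log2 difference -0.33, adjusted p = 0.283). *Pdgfa* had 190.2, 203.0 and 196.8, also overlapping (0.14, 95% interval -0.18 to 0.46, adjusted p = 0.585). Without wild type array C the differences were -0.57 for *Pdgfrb*, -0.30 for *Pdgfra*, -0.39 for *Pdgfb* and 0 for *Pdgfa* (adjusted p = 0.0764, 0.434, 0.297 and 0.987).

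By a screen of an unadjusted p under 0.05 with a fold over 1.5, 2 of the 6 members were lower and 0 higher in mutant mesangial cells, and 2 were lower without wild type array C. Of all transcript clusters tested, 3.12% were called lower and 2.08% higher. By an adjusted p under 0.05 alone, 3 members were lower and 0 higher, against 1.68% and 1.25% of all clusters. The groups did not overlap for 3 members, against 28.6% of all clusters. The median log2 difference of the 6 members was -0.45, and that of all clusters tested was -0.02. Markers of the mesangial cells were lower as a sum, but not each of them fell. Their summed signal was 6834 to 8216 in mutant against 9980 to 10944 in wild type mesangial arrays. Of the 8, 3 were called lower and 0 higher, with a median log2 difference of -0.45. *Meis1*, the gene of the sort reporter, had 320.6, 271.2 and 231.0 in mutant against 209.7, 224.0 and 189.1 in wild type arrays, higher without overlap. The summed signal of 6 smooth muscle and juxtaglomerular markers was 4654 to 5411 in mutant and 3526 to 3837 in wild type mesangial arrays, with 2 called higher. Fibroblast markers summed to 610 to 800 against 419 to 534, with 1 of 3 tested called higher, and parietal epithelium markers to 317 to 435 against 214 to 240, with the 1 tested, *Cldn1*, called higher (1.09). The endothelial markers overlapped, at 2952 to 3181 against 2966 to 8228, with 2 of 8 called lower and a median of -0.49, and 1 of 8 podocyte markers was called lower. The part of these markers in the falls of *Pdgfc* and *Pdgfd* was not tested.

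**Figure D2:**
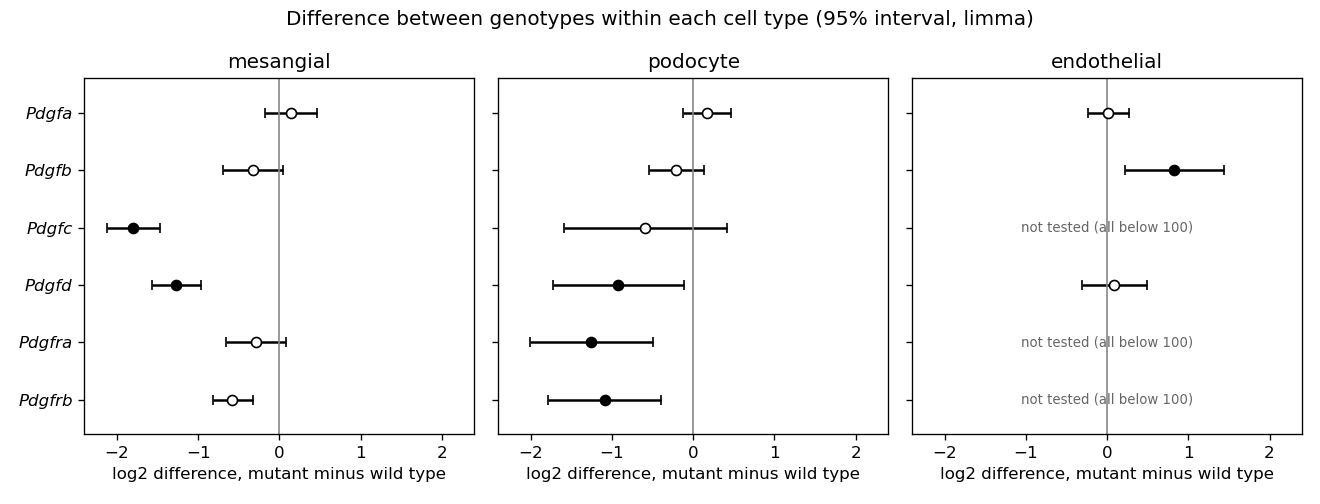
Log2 difference, mutant minus wild type, of each member within mesangial, podocyte and endothelial arrays, with the 95% interval from limma. Filled points pass an unadjusted p under 0.05 with a fold over 1.5, and 3 members were below a signal of 100 on all endothelial arrays and were not tested there. *Pdgfc* and *Pdgfd* in mesangial cells have the narrowest intervals among the filled points.

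In endothelial cells 1 member passed the screen, and in the other direction. *Pdgfb* had signals of 482.9, 296.7 and 277.1 in mutant arrays A, B and C, against 269.3, 156.4 and 168.5 in wild type arrays. The groups did not overlap, but the lowest mutant array and the highest wild type array, at 277.1 and 269.3, nearly met. The mean was 352 ± 114 in mutant and 198 ± 62 in wild type arrays (SD, n = 3 each), a 1.78-fold difference (log2 difference 0.83, SE 0.26, 95% interval 0.22 to 1.44, unadjusted p = 0.014, adjusted p = 0.178 by limma). It did not pass the adjustment. The screen's call was lost without mutant array A (0.58), wild type array B (0.68) or wild type array C (0.73), and without wild type array A the difference was 1.07 (adjusted p = 0.0724). PDGF-B is also a product of platelets and macrophages. All 4 platelet markers were below 100 on every array of the series, and 8 leukocyte markers summed to 698, 538 and 401 in mutant arrays A, B and C against 423 to 472 in wild type endothelial arrays. Mesangial markers summed to 572 to 683 in mutant and 696 to 775 in wild type endothelial arrays, with 1 of 3 tested called lower. Erythroid markers summed to 1220 to 1782 against 1351 to 3900, with 0 of 2 tested called and a median log2 difference of -0.73. The part of leukocytes and of these other cells in the *Pdgfb* difference was not tested.

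*Pdgfd*, the other ligand with a clear endothelial signal, had 336.7, 505.0 and 380.7 in mutant endothelial arrays and overlapped with wild type (log2 difference 0.09, 95% interval -0.31 to 0.49, adjusted p = 0.806). *Pdgfa* had 128.1, 120.2 and 129.1 in mutant endothelial arrays, within the wild type range (0.01, 95% interval -0.24 to 0.27, adjusted p = 0.965). *Pdgfc* at 41.4 to 55.1, *Pdgfra* at 46.0 to 59.2 and *Pdgfrb* at 51.2 to 55.4 in mutant endothelial arrays were below 100, as in wild type, and were not tested. Of the 3 members tested, 1 was called higher and 0 lower, where 2.96% and 0.865% of all clusters were. By the adjusted p 0 passed, against 1.29% of all clusters, and 1 had an unadjusted p under 0.05. The groups did not overlap for 1 member, against 25.1% of all clusters.

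In podocyte arrays both receptors were lower in mutants. *Pdgfra* had signals of 157.8, 102.7 and 66.6 in mutant arrays A, B and C, against 334.2, 211.1 and 209.4 in wild type arrays. *Pdgfrb* had 433.8, 213.0 and 201.2 against 682.1, 551.0 and 481.6. For both, every mutant array was below every wild type array, and array A was the highest of each group. *Pdgfra* was 2.39-fold lower (log2 difference -1.26, SE 0.33, unadjusted p = 0.00519, adjusted p = 0.188 by limma), and *Pdgfrb* 2.14-fold lower (-1.09, SE 0.30, unadjusted p = 0.00703, adjusted p = 0.205). Both passed the screen and neither passed the adjustment. With mutant array A left out, both passed it (*Pdgfra* -1.57, adjusted p = 0.0425, and *Pdgfrb* -1.45, adjusted p = 0.0205). In 1 fit of all 18 arrays, where the 3 cell types share 1 estimate of the spread, both passed as well (adjusted p = 0.00821 and 0.0081). Over single arrays left out, the adjusted p by limma ran from 0.0425 to 0.52 for *Pdgfra* and from 0.0205 to 0.528 for *Pdgfrb*. The alternatives that lost the screen's call were stricter call rules, and not arrays left out. These were the adjusted p alone for both receptors, and for *Pdgfra* also a fold over 2 with a signal of at least 500.

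*Pdgfd* had 79.1, 90.5 and 36.8 in mutant podocyte arrays, all below the signal minimum, and 158.3, 118.7 and 95.2 in wild type arrays. The groups did not overlap, with values of 90.5 and 95.2 at the edge (log2 difference -0.92, SE 0.35, unadjusted p = 0.0307, adjusted p = 0.305). Its call was lost without mutant array C (-0.52), wild type array A (-0.73) or wild type array B (-0.94). *Pdgfc* varied most between arrays, with 90.6, 204.7 and 70.0 in mutant and 260.5, 125.7 and 135.4 in wild type podocyte arrays, which overlapped (-0.59, 95% interval -1.59 to 0.41, adjusted p = 0.558). Without mutant array B it was -1.05 (unadjusted p = 0.0171, adjusted p = 0.316), which the screen calls. *Pdgfb* had 130.0, 103.3 and 97.4 in mutant podocyte arrays (-0.21, adjusted p = 0.55), and *Pdgfa* 139.3, 148.4 and 153.6 (0.17, adjusted p = 0.571). Both overlapped with wild type.

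The screen called 3 of the 6 members lower and 0 higher in mutant podocyte arrays, where it called 4.34% of all clusters lower and 1.26% higher. One of the 3, *Pdgfd*, was tested only through its wild type signals, so the count is a description. By the adjusted p 0 members and 0.0578% of all clusters passed. The 3 members with an unadjusted p under 0.05 were at ranks 333, 412 and 1218 by p among 12113 clusters. The groups did not overlap for 3 members, against 21.3% of all clusters. The median log2 difference of the 6 members was -0.76 and that of all clusters -0.04. The sums of mesangial and of endothelial markers were also lower in mutant podocyte arrays. The mesangial markers summed to 3311, 3015 and 977 in mutant podocyte arrays A, B and C and to 4625, 4063 and 3679 in wild type arrays. Of these 8 markers 3 were called lower and 0 higher, with a median log2 difference of -0.60. Not each of them fell. *Agtr1a* had 619.6, 941.3 and 138.9 in mutant and 849.2, 645 and 698.9 in wild type podocyte arrays. *Des* had 218.4, 162.8 and 97.4 against 195.9, 137 and 168.8. The 8 endothelial markers summed to 2712, 1159 and 722 in mutant and 4967, 5943 and 4423 in wild type podocyte arrays, and 8 of 8 were called lower, with a median of -1.71. The podocyte markers themselves summed to 11697 to 13359 in mutant and 12293 to 13460 in wild type arrays, with 0 of 8 called. Smooth muscle and juxtaglomerular markers summed to 1635 to 1780 in wild type podocyte arrays. They were higher in mutant arrays A and B, at 3717 and 4005, and lower in mutant array C, at 1322, with 2 called higher. The 3 parietal epithelium markers were higher, with sums of 497 to 732 in mutant and 305 to 329 in wild type podocyte arrays. Both tested markers, *Cldn1* and *Pax8*, were called higher. Erythroid markers summed to 5377, 692 and 202 in mutant podocyte arrays A, B and C and to 2962 to 3963 in wild type arrays, with 0 of the 2 tested called and a median of -2.07. Mutant array A, without which both receptors passed the adjustment, was the highest in them. Beside the mesangial sums of 3311, 3015 and 977 in mutant arrays A, B and C, *Pdgfrb* had 433.8, 213.0 and 201.2. The main step of *Pdgfrb* was thus from A to B, and that of the mesangial sum from B to C. Mutant array C, lowest in mesangial markers, was also lowest in *Pdgfra*, *Pdgfrb*, *Pdgfc* and *Pdgfd*. Without it *Pdgfra* was -0.95 (unadjusted p = 0.0127) and *Pdgfrb* -0.90 (unadjusted p = 0.0265), still past the screen, and the screen called 2 members. The part of other cells in the receptor difference was not tested.

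**Figure D3:**
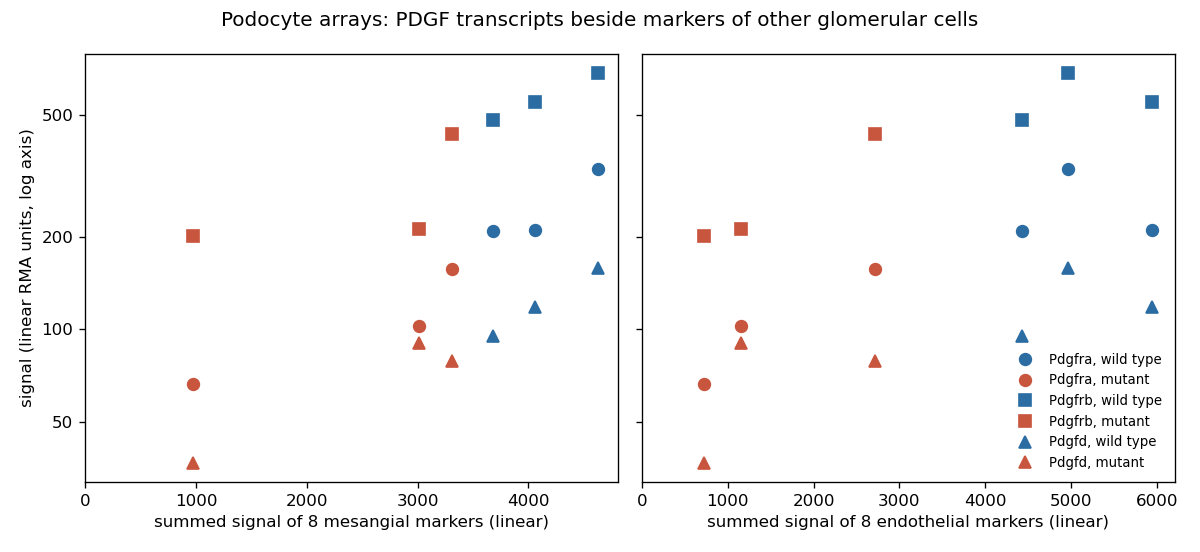
Signal of *Pdgfra*, *Pdgfrb* and *Pdgfd* (log axis) in the 6 podocyte arrays against the summed signal of 8 mesangial markers (left) and 8 endothelial markers (right), wild type in blue and mutant in red. The mutant arrays, with mesangial sums of 977 to 3311 and endothelial sums of 722 to 2712, lie to the left of and below the wild type arrays, with sums of 3679 to 4625 and 4423 to 5943.

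Whether the effect of the mutation on a member differed between cell types was tested in 1 limma fit of all 18 arrays. After adjustment 0 of the 6 members differed between mesangial cells and podocytes, where 0.717% of all clusters did. The unadjusted p was under 0.05 for 2 members, at ranks 803 and 745 by p among 13523 clusters. These were *Pdgfc*, with a difference of the log2 differences of -1.20 (SE 0.45, adjusted p = 0.272), and *Pdgfra*, with 0.97 (SE 0.35, adjusted p = 0.254). Between mesangial and endothelial cells 0 differed after adjustment, against 1.07% of all clusters. There 3 members had an unadjusted p under 0.05, at ranks 388, 367 and 302 by p among 13523 clusters. These were *Pdgfc* with -1.57 (SE 0.45, adjusted p = 0.106), *Pdgfd* with -1.36 (SE 0.38, adjusted p = 0.103) and *Pdgfb* with -1.16 (SE 0.31, adjusted p = 0.0876). Between podocytes and endothelial cells 0 differed, against 2.11% of all clusters. An unadjusted p under 0.05 was found for 4 members, at ranks 770, 927, 1039 and 1826 by p among 13523 clusters. These were *Pdgfb* with -1.03, *Pdgfra* with -1.12, *Pdgfrb* with -0.94 and *Pdgfd* with -1.01 (adjusted p = 0.0789, 0.0836, 0.092 and 0.135). For *Pdgfc* and both receptors the endothelial side is a background signal, where no response was measured. The share of all clusters with an unadjusted p under 0.05 is not given here, so nothing is read from the counts at that threshold.

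The mesangial and endothelial result depended on which arrays set the spread. The mutant podocyte arrays had the lowest correlations within a group, with a Pearson's r of 0.967 to 0.971 across genes against 0.980 to 0.992 in the other groups. In a fit of the 12 mesangial and endothelial arrays alone, an alternative chosen after seeing the data, the response of *Pdgfd* differed (-1.36, SE 0.23, adjusted p = 0.0138) and that of *Pdgfb* did not pass (-1.16, SE 0.34, adjusted p = 0.0949). *Pdgfc* also passed (-1.57, SE 0.20, adjusted p = 0.00291), but with endothelial signals below 100 on all 6 arrays there was no measured endothelial response to set it against. With array weights, which let noisier arrays count less, *Pdgfd* and *Pdgfb* passed (adjusted p = 0.0104 and 0.0134), as did *Pdgfc* with the same limit (adjusted p = 0.011). The level of *Pdgfd*, alike in wild type mesangial and endothelial cells, was lower in mutant mesangial than in mutant endothelial cells by 1.21 on the log2 scale (log2 difference -1.21, SE 0.15, adjusted p = 0.000596), where the mesangial arrays had 166.9 to 183.1 and the endothelial arrays 336.7 to 505.0. Of all clusters tested, 20.4% differed between these mutant groups by an adjusted p under 0.05 with a fold over 1.5.

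Other genes of the pathway were read from 5 lists of textbook PDGF genes. Proteins that process, bind or help to present the ligands gave 14 genes, of which 10 were tested in mesangial cells, with 1 called higher and 1 lower, where 2.08% and 3.12% of all clusters were, and a median log2 difference of -0.10. *Plau*, the urokinase plasminogen activator, which can activate PDGF-D, had 637.2, 629.1 and 698.6 in mutant mesangial arrays against 331.4, 470.3 and 312.3 in wild type arrays. It rose 1.79-fold, with groups that did not overlap (log2 difference 0.84, SE 0.16, adjusted p = 0.0497). *Slc9a3r2*, a PDZ scaffold that binds the PDGF receptor tail, was 1.81-fold lower (-0.86, adjusted p = 0.138), but its wild type signals were 470.2, 449.1 and 894.5, with the highest in array C. Without array C, *Plau* was 0.73 (adjusted p = 0.0824), still past the screen, and *Slc9a3r2* was -0.54 and no longer called (adjusted p = 0.0762), so that 2 of the 9 tested were higher and 0 lower, where 2.29% and 3.04% of all clusters were. The added call was *Plat*, the tissue plasminogen activator, which can activate PDGF-C. It had 365.7, 359.8 and 299.4 in mutant and 159.0, 187.3 and 1066.9 in wild type mesangial arrays, with array C far above the rest. With all arrays the log2 difference of *Plat* was 0.10 (SE 0.68, adjusted p = 0.949 by limma), which was not called. Without array C it was higher in mutants by 0.98 on the log2 scale (SE 0.13, adjusted p = 0.0226). In podocyte arrays 12 genes of this list were tested and 2 were called lower, where 4.34% of all clusters were. *Plat* was 1.65-fold lower (-0.72, SE 0.14, adjusted p = 0.135). *Nrp1*, a co-receptor of VEGF and semaphorins that also binds PDGF ligands, was 2.74-fold lower (-1.45, SE 0.32, adjusted p = 0.154). Wild type signals of *Nrp1* were 2302 ± 57.5 in mesangial, 1376 ± 121 in podocyte and 2295 ± 154 in endothelial arrays (SD, n = 3 each). The endothelial and mesangial markers were also lower as sums in mutant podocyte arrays, as given above. Their part in the *Plat* and *Nrp1* differences was not tested. In endothelial cells 9 were tested and 0 called, where 2.96% of all clusters were called higher and 0.865% lower.

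Receptor-proximal signalling genes, the adapters, kinases and RAS pathway members that dock to or act just below the receptors, made up a list of 33 genes, of which 32 were found. In mesangial cells 0 of 29 tested were called by the screen, where 2.08% of all clusters were called higher and 3.12% lower. In podocyte arrays 0 of 30 were called (1.26% and 4.34% of all clusters) and in endothelial cells 0 of 29 (2.96% and 0.865%), counts near these shares. Their median log2 difference was -0.01 in mesangial, -0.09 in podocyte and 0.12 in endothelial cells. *Stat3*, a transcription factor activated by cytokine and growth factor receptors, passed the adjusted p in mesangial cells (0.49, adjusted p = 0.0418) at a fold under 1.5, and not without wild type array C (0.52, adjusted p = 0.0616). Among 10 negative regulators, phosphatases, ubiquitin ligases and Sprouty proteins, 0 of the 10 tested in mesangial and 0 of the 9 tested in podocyte arrays were called. In endothelial cells 1 of 8 was called higher, where 2.96% of all clusters were. With so few genes nothing is read from these counts. This was *Dusp6*, a phosphatase of ERK, with 270.8, 287.1 and 257.1 in mutant against 204.8, 166.1 and 163.9 in wild type arrays (0.61, SE 0.11, adjusted p = 0.0507). Of 4 related receptors 1 was tested in podocyte arrays, and it was called higher, where 1.26% of all clusters were. This was *Csf1r*, the receptor of macrophage colony-stimulating factor, at 133.7, 101.2 and 89.5 against 59.0, 77.9 and 73.1 (0.62, adjusted p = 0.22), and is also a marker of macrophages. The 8 leukocyte markers summed to 573, 454 and 455 in mutant and 445, 699 and 510 in wild type podocyte arrays, with 0 of 3 tested called. The part of macrophages in the *Csf1r* difference was not tested. The wild type podocyte signals of *Csf1r* were below 100, so it was tested only through the mutant side.

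Of 10 transcripts classically induced by PDGF in fibroblasts, 7 were tested in mesangial cells, 3 rose, by screen and adjusted p alike, and 0 fell, with a median log2 difference of 0.43. Of all clusters tested there, the screen called 2.08% higher. *Ccl2*, a monocyte chemokine, had 174.3, 163.1 and 146.8 in mutant against 79.6, 56.2 and 57.4 in wild type mesangial arrays (1.34, SE 0.15, adjusted p = 0.0134). *Myc*, a growth regulator, had 97.5, 135.0 and 100.8 against 53.8, 55.9 and 48.6 (1.06, SE 0.14, adjusted p = 0.0204). *Egr1*, an immediate early transcription factor, had 194.2, 181.1 and 137.5 against 100.7, 98.5 and 93.1 (0.80, SE 0.14, adjusted p = 0.0396). For all 3 genes every mutant array was above every wild type array. The wild type mesangial signals of *Ccl2* and *Myc* were below 100, so both entered through the mutant side. The count and the median of this list are therefore a description, and nothing is read from them. Without wild type array C the differences were 1.27 for *Ccl2* (adjusted p = 0.0206), 1.00 for *Myc* (adjusted p = 0.0369) and 0.76 for *Egr1* (adjusted p = 0.0732). Many stimuli other than PDGF induce these genes. In podocyte arrays 2 of the 6 tested were called higher, where 1.26% of all clusters were, and neither passed the adjustment. These were *Egr1* (0.95, adjusted p = 0.143), whose wild type podocyte signals of 83.7 to 98.9 were below 100 so that it too entered through the mutant side, and *Cxcl1*, a neutrophil chemokine (0.80, adjusted p = 0.191). In endothelial cells 1 of 7 was called higher, where 2.96% of all clusters were. This was again *Egr1* (0.69, adjusted p = 0.20), with 257.2, 148.4 and 311.1 in mutant against 145.3, 143.8 and 134.4 in wild type arrays.

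**Figure D4:**
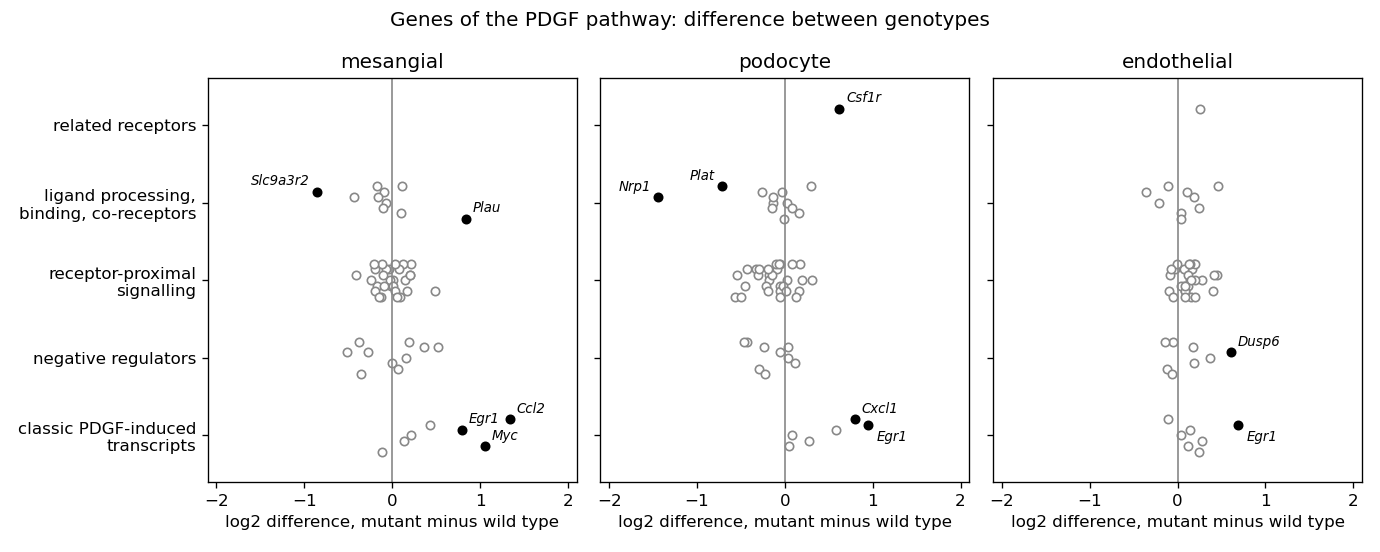
Log2 difference, mutant minus wild type, of the genes of 5 PDGF pathway lists within each cell type. Each point is 1 gene, and filled, named points pass an unadjusted p under 0.05 with a fold over 1.5, from *Nrp1* at -1.45 in podocyte arrays to *Ccl2* at 1.34 in mesangial cells.

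The members were also compared with each other over the 18 arrays, as a description, since the arrays of a group are alike and cell type sets most of the pattern. *Pdgfra* and *Pdgfrb* were the pair most alike, with a Pearson's r of 0.95 between log2 signals. *Pdgfc* correlated with them at 0.88 and 0.89. *Pdgfb* ran against the receptors, at -0.52 with *Pdgfra* and -0.66 with *Pdgfrb*, and *Pdgfd* had an r of 0.03 with *Pdgfc* and with *Pdgfra*. The comparison with other genes covered 9959 clusters, a part of those with a single symbol. Among them, those most like *Pdgfrb* were *Khdrbs3*, *S1pr3* and *Itga8*, with an r of 0.994, 0.994 and 0.988. *Itga8*, the alpha8 integrin, is one of the mesangial markers used above. Those most like *Pdgfra* were *Gucy1a2* and *Chn1* (0.994 and 0.991), and those most like *Pdgfc* were *Ano1*, *Tmem182* and *Lrrc17* (0.966, 0.961 and 0.959). *Pdgfd* was most like *Rgl1*, *Ppp6r3* and *Ep400* (0.966, 0.951 and 0.950), and *Pdgfb* most like *Gprc5b*, *Nudt9* and *Pvr* (0.942, 0.941 and 0.939). For *Pdgfa* the closest with a readable symbol were *Lrrk1* and *Kalrn* (0.927 and 0.916), after a cluster whose symbol the table gives as a date (0.942).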

How the data were processed

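RNA of the sorted cells was amplified in 1 round and read on Affymetrix Mouse Gene ST arrays. The deposited table holds intensity values on a linear scale for 28856 transcript clusters, which the authors made by RMA with Expression Console, per the labels. The series record names Exon arrays and GeneBASE, unlike the file header and sample records, which were followed. The 18 columns of log2 values that the authors deposited beside them were not used. Columns name the group but not the replicate number, so arrays are called A, B and C by column order. Array medians were 62.8 to 71.6, and 3 arrays per group limit the precision. No depth applies to arrays.

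Log2 signals were compared by limma (lmFit and eBayes, version 3.58.1, under R 4.3.3), with no covariates. A cluster was tested where 1 or more arrays of the comparison reached 100. Genotypes were compared within each cell type (6 arrays), wild type cell types in pairs (6 arrays) and effects of the mutation in 1 fit of 18 arrays. Every p-value was adjusted by Benjamini-Hochberg over all clusters tested. The scripts were tested on simulated data. The members, the pathway lists, the marker lists and the rule for named genes were chosen with earlier results of these data known. The rule names, from each pathway list, genes that pass the adjusted p in a genotype comparison or, failing that, the 2 past the screen with the smallest p, and for each member the 3 most alike clusters. An item this rule names is not reported here. Alternatives were other signal minimums, an intensity trend, array medians subtracted, repeated quantile normalization, array weights, 1 fit of all arrays, stricter calls, mutant arrays and each array left out. RNA-seq was not used here.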

Additional observations from a re-analysis of the deposited data

How the results depend on the processing

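Of 935 values of members under the alternatives, 864 kept their direction and their side of the threshold, 21 lost a call, 28 gained one and 22 changed sign. The falls of *Pdgfc* and *Pdgfd* in mesangial cells kept their sign under every alternative run, and the screen's call of *Pdgfd* was lost only under the stricter fold over 2 with a signal of at least 500, which leaves 1 member called. Under that stricter screen 1 member was called in podocyte and 0 in endothelial arrays, and under the adjusted p alone 0 in each. The endothelial count was 0 to 1 over single arrays left out. In mutant instead of wild type arrays, 6 members differed between mesangial and endothelial cells, where 20.4% of all clusters did, and 3 of them (*Pdgfc*, *Pdgfra* and *Pdgfrb*) were tested only through the mesangial side, and *Pdgfd* changed sign to -1.21. For the difference in mutation effect between mesangial and endothelial cells, the count was 3 with array weights, 2 with the 12 arrays of the 2 cell types (chosen after seeing the data) and 0 to 1 over single arrays left out, the 1 without wild type endothelial array A or mutant podocyte array B or C. Between mesangial cells and podocytes it was 0 to 2, the 2 without mutant podocyte array A. Between podocytes and endothelial cells it was 1 with array medians subtracted and 0 to 3 over single arrays left out, 3 without mutant podocyte array A and 1 without wild type endothelial array A. Why these counts moved was not tested beyond the arrays named.

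The other sign changes were in values that were not called. With quantile normalization repeated, endothelial *Pdgfa* was -0.04 and endothelial *Pdgfd* -0.03. With its other cluster *Pdgfa* was -0.04 in mesangial and -0.09 in endothelial cells, and -0.19 and -0.13 for wild type mesangial minus podocyte and minus endothelial, against 0.45 and 0.52 with its main cluster, the latter with an adjusted p of 0.0412. Over single arrays left out *Pdgfa* ranged from 0 to 0.21 in mesangial and from -0.06 to 0.11 in endothelial cells, from -0.01 to 0.17 for podocyte minus endothelial, and from -0.17 to 0.04 and -0.02 to 0.20 for the mutation effect in mesangial cells minus that in podocytes and in endothelial cells. *Pdgfd* in endothelial cells ranged from -0.08 to 0.22. For the mutation effect, *Pdgfb* ranged from -0.29 to 0 (mesangial minus podocyte) and *Pdgfra* from -0.28 to 0.01 (mesangial minus endothelial). No paired analysis was possible because the groups share no replicate numbers and the columns carry none. With 3 arrays per group, effects near the fold threshold cannot be settled, and signals below 100 give no level.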
